A study of Rattus norvegicus with 16 samples.

Results

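The N-methyl-D-aspartate (NMDA) receptor subunit genes were examined on whole-hippocampus expression arrays of 16 rats. The genes are Grin1, Grin2a, Grin2b, Grin2c, Grin2d, Grin3a and Grin3b, and their probes were taken by gene symbol from the array annotation. The symbol found 7 probes of 30367, and they cover 6 of the 7 genes, among 26583 names in the annotation. Grin1 has both an upstream and a downstream probe, and Grin2a, Grin2b, Grin2c, Grin2d and Grin3b have 1 probe each. No probe carries the symbol Grin3a. An unnamed Ensembl transcript with 2 probes is described in the annotation as receptor subunit 3A, and those probes are reported apart from the 7 and were chosen after their values had been seen. All 7 probes passed the filter on dim probes, under which a probe must be well above background in all rats of 1 group or more.

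The rats were adult male Sprague-Dawley animals, and each array holds the hippocampal RNA of 1 rat collected 24 h after injury or at the matched time. Naive rats (n = 3) were untreated, Sham rats (n = 2) were anesthetized and prepared but not injured, and TBI rats (n = 3) received a severe fluid-percussion traumatic brain injury with no vehicle named. The other injured rats were given PMI (PMI-006) at 250 mg/kg (TBI+PMI, n = 3), JM6 at 400 mg/kg (TBI+JM6, n = 3) or E33 (estradiol) at 33 ug/kg (TBI+E33, n = 2). PMI and JM6 were given by oral gavage. The route of E33 is subcutaneous in the sample descriptions and intraperitoneal in the study's methods. The methods give 3 rats per group, and p-values describe the spread between the rats analysed here. A lower signal in whole tissue from fewer cells of a type cannot be told apart from one due to less RNA per cell.

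NMDA receptors are glutamate-gated, calcium-permeable channels of synapses. Every receptor contains the GluN1 subunit made from Grin1, joined to GluN2 subunits (Grin2a to Grin2d) that bind glutamate, or to GluN3 subunits (Grin3a, Grin3b) that bind glycine and lower calcium entry. In the forebrain the GluN2B subunit prevails early in life and GluN2A rises with maturation, and overactivation of the receptors is a textbook route of excitotoxic injury. JM6 is an inhibitor of kynurenine 3-monooxygenase, which raises kynurenic acid, an endogenous antagonist of these receptors.

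Values are log2 of the background-subtracted signal over the 75th percentile of the probes well above background on the same array, so that 0 is the level of a bright probe, and the level of a probe cannot be set against that of another probe. A call is a limma p-value that stayed under 0.05 after Benjamini-Hochberg adjustment, in 1 model of all 16 arrays and all tested probes. Naive, Sham and TBI arrays were scanned in the first of 2 sessions and all drug arrays in the second. The drug arrays had 20259 to 24984 probes above background and the others 16282 to 18245. Drug treatment and scanning session cannot be told apart. The median of all probes was 0.79 higher (log2) in TBI+PMI, 0.99 higher in TBI+JM6 and 1.08 higher in TBI+E33 than in TBI, and between -0.015 and -0.0024 after quantile normalization, which makes the distribution of signals equal between arrays. Of the 9 markers of excitatory neurons and hippocampal fields, 7 to 9 were above background on each array.

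The probes of Grin1 and Grin2b are printed here in full, because most calls below rest on them and each of their values is hybridisation to these 60 bases alone. The upstream Grin1 probe spans 134 genomic bases, more than its length. The downstream one lies 5209 genomic bases further on in the direction of transcription, a distance on the genome and not along the spliced transcript. The end of that transcript is alternatively spliced, so that the probes need not measure the same messages. They are, 5′ to 3′ and in lower case throughout:
Grin1 upstream (A_43_P11774, rn4 chr3:3460217-3460350, minus strand): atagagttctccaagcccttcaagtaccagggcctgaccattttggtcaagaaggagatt
Grin1 downstream (A_64_P085896, rn4 chr3:3454949-3455008, minus strand): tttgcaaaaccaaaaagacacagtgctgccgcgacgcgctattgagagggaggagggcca
Grin2b (A_44_P308696, rn4 chr4:172722609-172722668, minus strand): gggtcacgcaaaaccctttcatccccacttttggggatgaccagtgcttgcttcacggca
Each of these 3 sequences has 2 reading frames without a stop codon along its whole length. The share of G and C was 46.7% and 55% in the Grin1 probes and 55% in the Grin2b probe. The Grin2d probe, at chr1:96309508-96309567 on the minus strand, is the richest of the 7 with 78.3%. The Grin2c probe (chr10:105323397-105323456) and the Grin3b probe (chr7:11244019-11244078) also lie on the minus strand. Exons were not assigned here, since no annotation of rn4 was used.

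Grin1, the subunit that every NMDA receptor needs, was lower in TBI than in Sham at both probes and higher in Sham than in Naive at both. The downstream probe was above background on all 16 arrays. It stood at -3.80, -4.14 and -3.82 in Naive, at -2.99 and -2.46 in Sham, and at -3.09, -3.94 and -4.17 in TBI rats. Both Sham values lay above every Naive and every TBI value, although TBI 1 lay just below Sham 1. The fall in TBI vs. Sham was -1.01 ± 0.28 (log2 fold change ± SE, 2.01-fold, adjusted p = 0.0404 by limma). The rise in Sham vs. Naive was 1.19 ± 0.28 (2.29-fold, adjusted p = 0.0223 by limma). TBI and Naive did not differ beyond their spread, with a difference of 0.19 and a 95% interval of -0.35 to 0.72.

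The upstream Grin1 probe was also highest in Sham rats within the first session. Its values were -5.45, -4.82 and -5.29 in Naive, -3.37 and -3.17 in Sham, and -4.38, -6.27 and -6.19 in TBI, where only TBI 1 was above background. Sham did not overlap with either of the other groups, and TBI 1 alone lay above the Naive values. With 1 of 3 TBI arrays above background, the fitted difference in TBI vs. Sham was taken largely against signals near background, and it was -2.34 ± 0.44 (adjusted p = 0.0108 by limma). The probe was higher by 1.92 ± 0.44 in Sham vs. Naive (3.79-fold, adjusted p = 0.0206 by limma), where all arrays were above background. For TBI vs. Naive the difference was -0.42 with a 95% interval of -1.27 to 0.42.

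**Figure D1:**
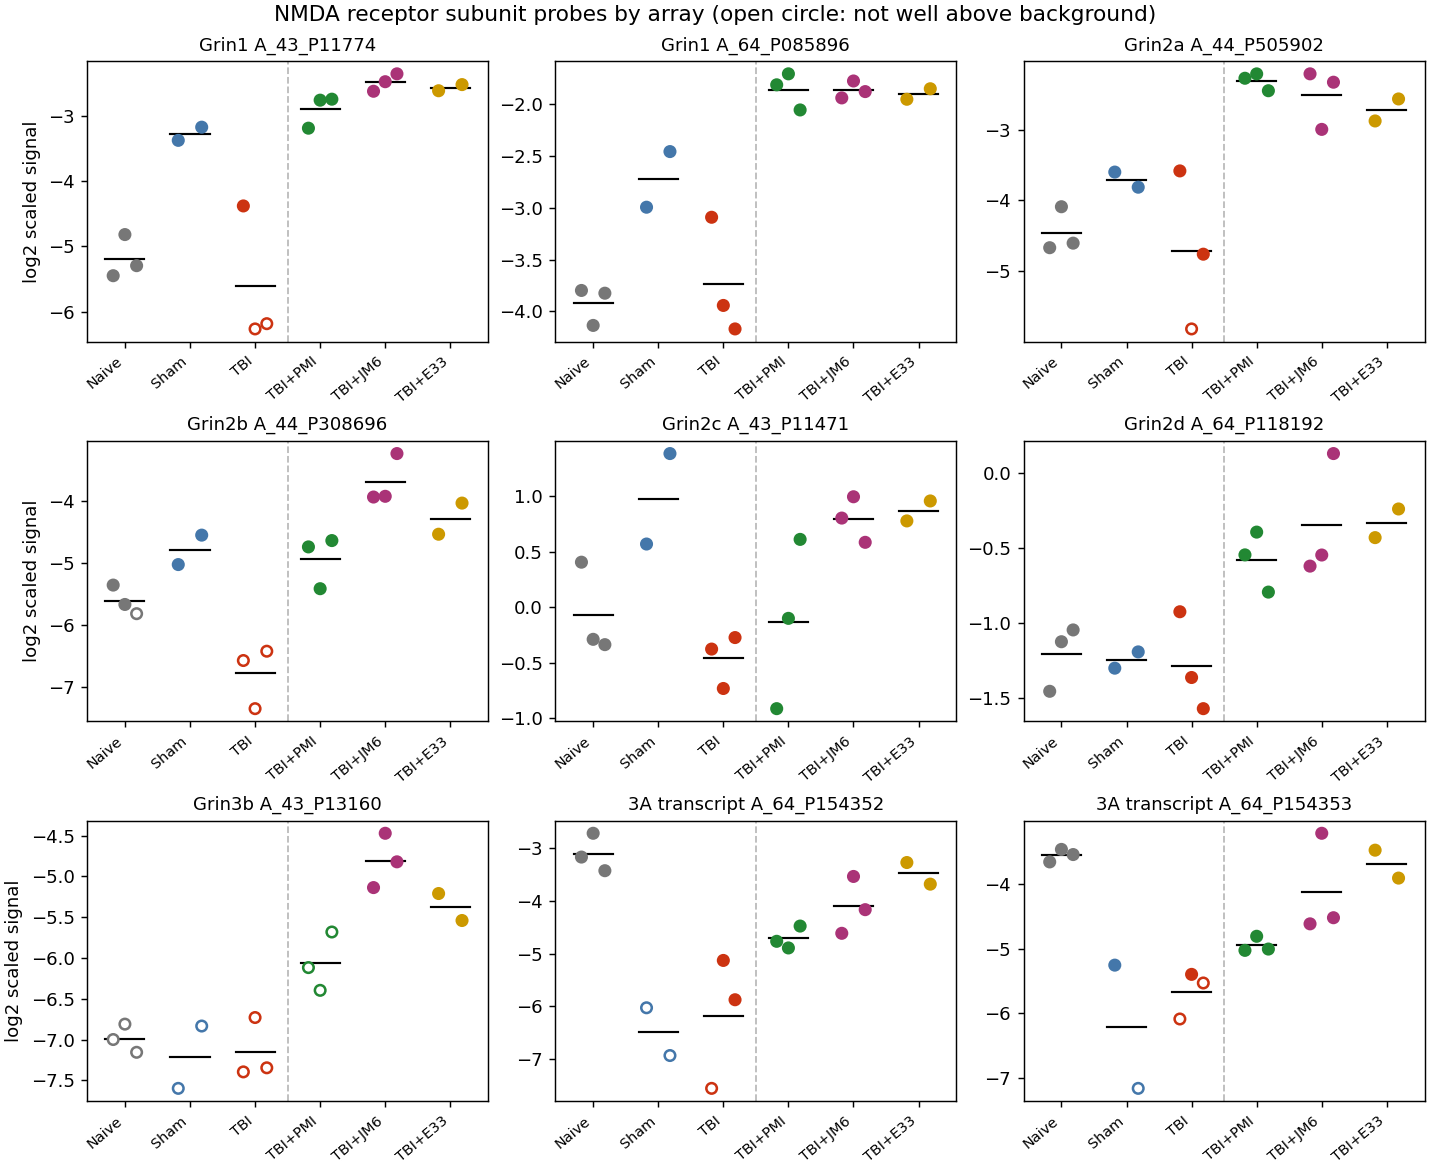
Log2 scaled signal (y axis) of the 7 receptor subunit probes and the 2 probes of the transcript described as 3A on each of the 16 arrays, by group (x axis). Points are rats, bars are group means, open circles are not well above background and the dashed line parts the scanning sessions; Sham lies above TBI at both Grin1 probes, Grin2b and Grin2c, while the 3A probes are highest in Naive within the first session.

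Among the GluN2 genes, Grin2b and Grin2c were lower in TBI than in Sham, whereas Grin2a and Grin2d were not called. Grin2b stood at -5.36, -5.67 and -5.82 in Naive, -5.03 and -4.55 in Sham and -6.58, -7.35 and -6.43 in TBI rats. It was above background on 2 of 3 Naive, 2 of 2 Sham and 0 of 3 TBI arrays, so that only a bound can be given for TBI. All TBI values lay below all others. The fitted difference in TBI vs. Sham was -1.99 ± 0.34 (adjusted p = 0.00818 by limma), and Sham was at least 2.26-fold higher than the background level of the TBI arrays. In TBI vs. Naive the fitted difference was -1.17 ± 0.30 (adjusted p = 0.0469 by limma), and Naive was at least 1.27-fold higher. Grin2b was the only one of the 7 probes called in that comparison. The call was lost with quantile normalization (adjusted p = 0.106 by limma), with normexp, where the difference turned to 0.30, and without any 1 of the Naive rats, TBI 2 or TBI 3, when 0 of 7 were called, whereas without TBI 1 there were 2.

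Grin2c, whose subunit is best known from cerebellar granule cells and astrocytes, was above background on all 16 arrays. Naive rats had 0.40, -0.29 and -0.34, Sham rats 0.57 and 1.38, and TBI rats -0.38, -0.73 and -0.27. Sham values were above all others, and Naive and TBI overlapped. The change was -1.43 ± 0.39 in TBI vs. Sham (2.70-fold lower, adjusted p = 0.0377 by limma). In Sham vs. Naive it was 1.05 (95% interval 0.21 to 1.89) with an adjusted p of 0.121 by limma.

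Grin2a, the mature GluN2 subunit, varied most within the TBI group, at -3.58, -5.81 and -4.76, with TBI 2 not above background. Naive rats had -4.67, -4.09 and -4.60 and Sham rats -3.60 and -3.81, within the range of the TBI values. The difference in TBI vs. Sham was -1.01 with a 95% interval of -2.03 to 0.01 (adjusted p = 0.195 by limma), the same size as that of the downstream Grin1 probe with a wider interval. Grin2d was flat across these groups, with values from -1.57 to -0.92 in the 8 rats. Its differences in the comparisons among Naive, Sham and TBI were between -0.08 and -0.04, with 95% intervals that stayed within -0.59 and 0.52. Grin3b was not above background on any Naive, Sham or TBI array, and no change can be given for it there.

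In all, 4 of the 7 probes were called lower in TBI vs. Sham, where 6.49% of all tested probes were called lower, and 0 were called higher (2.93% of all probes). Their median difference was -1.01, beside -0.03 for all probes. Of the 7, 1 was called lower in TBI vs. Naive (1.73% of all probes) and 0 higher (2.98%). In Sham vs. Naive 2 of 7, both Grin1 probes, were called higher (6.57% of all probes) and 0 lower (1.52%). The direction of the 4 differences in TBI vs. Sham was the same under every alternative run except for Grin2b with a normexp background correction (0.04). Their calls rested on the 2 Sham rats and on the spread being taken from all groups. Without Sham 2, 0 of 7 probes were called, without Sham 1 only Grin2b, without TBI 2 or without TBI 3 only the upstream Grin1 probe and Grin2b, and without TBI 1 there were 5. With limma on the Sham and TBI arrays alone 0 were called, and with quantile normalization 2, the upstream Grin1 probe and Grin2b. In Sham vs. Naive 0 of 7 were called with quantile normalization (adjusted p = 0.0619 and 0.0515 for the Grin1 probes by limma), without Sham 2 or without Naive 3, and 1 of 7 without Sham 1, Naive 1 or Naive 2.

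**Figure D2:**
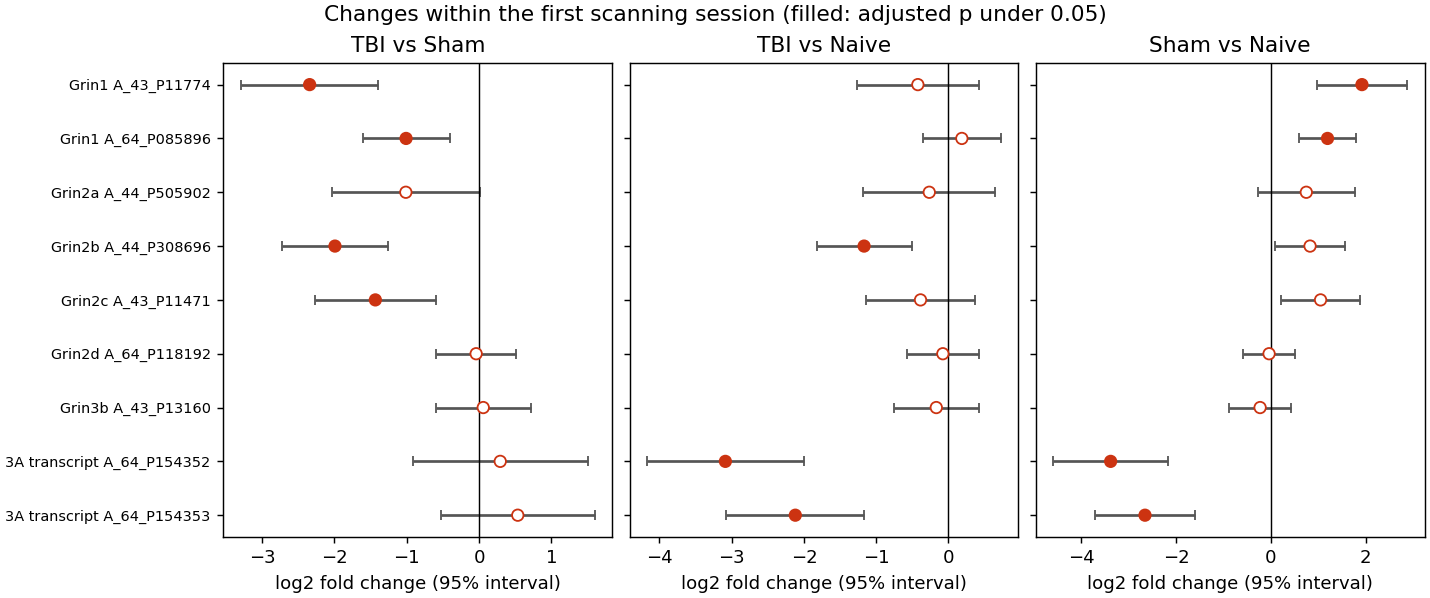
Log2 fold change (x axis) with its 95% interval from limma for each probe (y axis) in the comparisons among TBI, Sham and Naive rats. Filled points have an adjusted p under 0.05; the called Grin1, Grin2b and Grin2c probes lie to the left of 0 in TBI vs. Sham, and the 3A probes lie to the left in both comparisons with Naive.

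No slide held both Sham and TBI rats, so slide and group cannot be told apart for that comparison except through the Naive rats, which were on both slides. In a model of the first session with the slide as a fixed term, the differences in TBI vs. Sham were -1.15 for the downstream Grin1 probe, -2.18 for the upstream one, -1.69 for Grin2b and -1.04 for Grin2c, and 0 of 7 were called. On the slide that held 2 Sham and 2 Naive rats, the downstream Grin1 probe was 1.24 and the upstream probe 1.87 higher in Sham, close to the values over all arrays.

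The summed markers of excitatory neurons were, like Grin1, highest in Sham rats within the first session. Summed on a linear scale over 9 genes, of which Slc17a7 (the vesicular glutamate transporter of hippocampal principal cells) and Neurod6 are examples, they were 5.28 to 6.13 in Naive, 9.76 and 11.1 in Sham, and 5.05 to 8.58 in TBI rats. TBI 1, the rat with the highest Grin1 and Grin2a among TBI rats, also had the highest sum, and TBI 2 the lowest. At the downstream Grin1 probe, however, TBI 3 was the lowest, at -4.17 beside -3.94 in TBI 2. Of the 9 markers, 2 were called lower in TBI vs. Sham, Slc17a7 (-1.43) and Calb1 (-1.11), and 2 higher in Sham vs. Naive, Slc17a7 (1.43) and Wfs1 (1.43). Neurod6, the brightest in the sum, was not called in either (-0.74 and 0.80). Zbtb20 (-0.38) and Prox1 (-0.77) were on the lower side in Sham vs. Naive and were not called. Prox1, a marker of dentate granule cells, was above background on 1 of 3 Naive, 0 of 2 Sham and 0 of 3 TBI arrays. The summed level of 10 general neuronal markers was 43.8 to 51.1 in Naive, 49.5 to 59.3 in Sham and 38.1 to 45.9 in TBI rats. The pattern was not confined to neuronal markers. Of 10 oligodendrocyte markers, 3 were called lower in TBI vs. Sham and 1 higher in Sham vs. Naive. The part of these markers in the Grin1, Grin2b and Grin2c results was not tested.

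**Figure D3:**
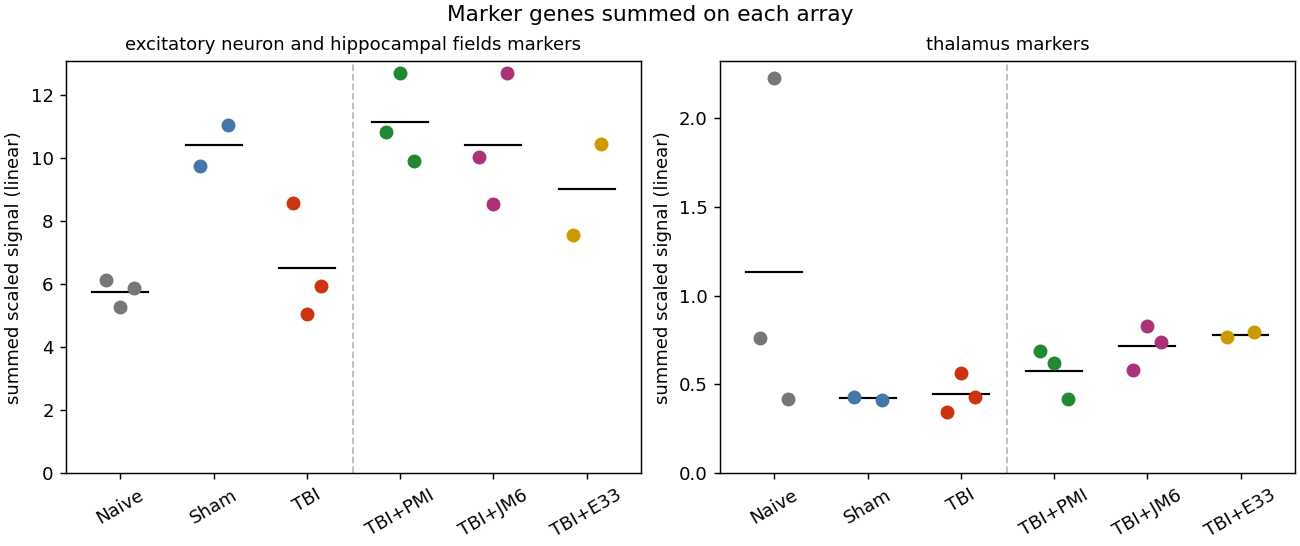
Summed scaled signal (linear, y axis) of the marker genes of excitatory neurons and hippocampal fields (left) and of thalamus (right) on each array by group; points are rats and bars are means. The excitatory sum is higher in both Sham rats than in any Naive or TBI rat, and the thalamic sum is highest in Naive 2.

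The transcript described as receptor subunit 3A was highest in Naive rats within the first session. Its probes lie on rn4 chr5:66406453-66406512 and chr5:66406544-66406603, do not overlap and carry no gene symbol. GluN3A is known for its expression in the young brain and for its persistence in some adult regions. The first probe stood at -3.17, -2.71 and -3.42 in Naive, at -6.03 and -6.93 in Sham and at -7.56, -5.13 and -5.88 in TBI rats, and neither Sham array was above background. The second stood at -3.65, -3.46 and -3.54 in Naive, -5.25 and -7.16 in Sham, and -6.09, -5.40 and -5.53 in TBI rats, with 1 of 2 Sham and 1 of 3 TBI arrays above background. At both probes every Naive value exceeded every Sham and TBI value.

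The first of these probes was lower in TBI vs. Naive by -3.09 ± 0.50 (8.49-fold, adjusted p = 0.00761 by limma). For Sham vs. Naive the fitted difference was -3.38 ± 0.56 (adjusted p = 0.00557 by limma), and Naive was at least 8.97-fold higher than the background level of the Sham arrays. The second probe was lower by -2.12 ± 0.44 in TBI vs. Naive (4.34-fold, adjusted p = 0.0198 by limma) and by -2.66 ± 0.49 in Sham vs. Naive (6.30-fold, adjusted p = 0.00886 by limma). On the slide that held 2 Sham and 2 Naive rats the differences were -3.54 and -2.65. TBI and Sham did not differ beyond their spread, by 0.29 (95% interval -0.92 to 1.5) and 0.54 (-0.53 to 1.60). The direction against Naive was kept under every alternative run. In TBI vs. Naive both calls were lost with normexp, the compared groups alone and the slide as a fixed term (adjusted p from 0.0525 to 0.805 by limma), and that of the second probe also without any 1 of the Naive rats or TBI 3 (0.0503 to 0.0633). In Sham vs. Naive both calls were lost without Sham 2 (adjusted p = 0.0569 and 0.0843 by limma) and with normexp (0.637 and 0.881), at the second probe also with the compared groups alone (0.0785), and at both with the slide as a fixed term (0.158 and 0.165).

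Thalamic markers were also highest in a Naive rat. Their sum over 4 genes was 0.759, 2.23 and 0.416 in Naive 1, 2 and 3, 0.430 and 0.414 in Sham and 0.343 to 0.567 in TBI rats. The sum of Naive 3 lay within the Sham and TBI range, while its 3A values of -3.42 and -3.54 did not. Of the 4 markers, 1 was called lower in Sham vs. Naive and 0 in TBI vs. Naive. It was Rora, which was not above background on any array of the first session. Choroid plexus markers differed between rats within groups, from 2.35 to 76.7 in Naive and from 4.90 to 122 in Sham, against 0.191 to 3.54 in TBI rats. The part of tissue next to the hippocampus in these values was not tested.

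The ratio of Grin2a to Grin2b was taken because the GluN2 subunits switch in development. Whether the ratio of these RNA signals tracks that switch in adult rats was not tested. A multiplicative scaling factor shared by the array cancels in it, but an additive background does not. As a log2 value of their probes the ratio was 0.69, 1.58 and 1.22 in Naive and 1.43 and 0.74 in Sham. In TBI it was 2.99, 1.54 and 1.67. The TBI ratios are limited by Grin2b, which was not above background on any TBI array, and on TBI 2 neither probe was. The mean was 0.98 higher in TBI than in Sham (exact permutation p = 0.2, two-sided, the smallest that 3 against 2 rats allow) and 0.90 higher than in Naive (exact permutation p = 0.2, where 0.1 is the smallest possible). Sham and Naive differed by -0.08 (exact permutation p = 1). None of the 6 comparisons of this ratio had an adjusted p under 0.3.

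**Figure D4:**
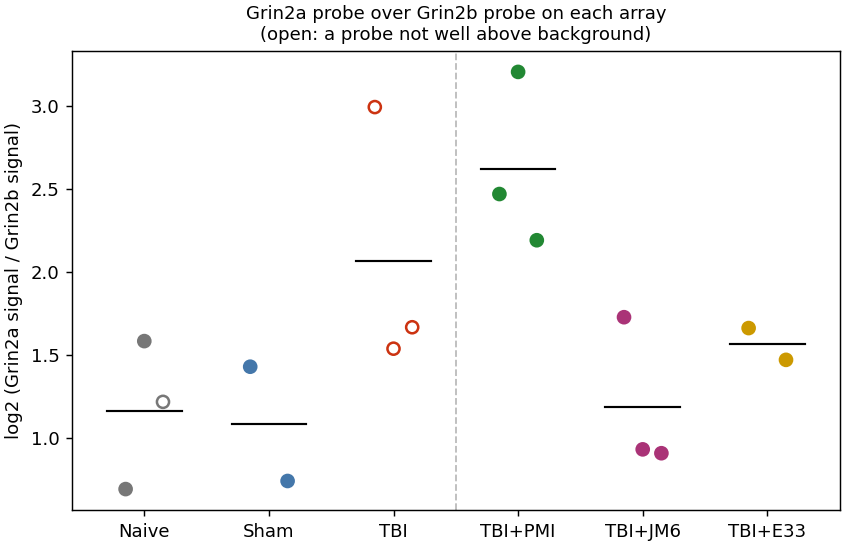
Log2 of the Grin2a signal over the Grin2b signal (y axis) on each array by group; points are rats, bars are means, and open circles mark arrays on which at least 1 of the probes was not well above background. The 3 TBI+PMI rats lie between 2.19 and 3.21, above the 3 TBI+JM6 rats at 0.91 to 1.73.

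Against TBI, nearly all receptor probes were higher in the drug groups, and so were most probes of the array. In TBI+JM6 vs. TBI 7 of 7 were called higher, beside 69.9% of all tested probes. In TBI+PMI vs. TBI 6 of 7 were called higher, beside 56.7%, and in TBI+E33 vs. TBI 7 of 7, beside 70.2%. These counts include Grin3b, which was not above background on any TBI+PMI or TBI array and passed the filter through TBI+JM6 and TBI+E33 alone. Shares this near to those of all probes are not a result about the receptor. After quantile normalization, 3 of 7 were called higher in TBI+JM6 (13.9% of all probes), 3 of 7 in TBI+PMI (9.96%) and 1 of 7 in TBI+E33 (10.4%). In each, 0 of 7 were called lower. Of all 22827 tested probes, 6208, 4377 and 4658 were then called in either direction. Of those, 3163, 2274 and 2376 were higher and the rest lower. The 3 comparisons share the TBI rats.

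Grin1 was called higher at both probes in TBI+PMI and TBI+JM6, and at the upstream probe in TBI+E33, under both scalings. The downstream probe had -1.81, -1.70 and -2.05 in TBI+PMI, -1.94, -1.77 and -1.88 in TBI+JM6, and -1.95 and -1.85 in TBI+E33, all above the highest TBI value of -3.09. The differences from TBI were 1.88, 1.87 and 1.83, or 1.09, 0.88 and 0.76 above the all-probe median. With quantile normalization they were 0.99 (adjusted p = 0.0104 by limma), 0.81 (0.0177) and 0.69 (0.0643) for PMI, JM6 and E33. That median, here and below, is not matched to the level of a probe. In TBI+JM6 vs. TBI the dim markers Gad2 and Syt1 (-4.69 and -3.25 in TBI) differed by 1.99 and 1.78, or 0.70 and 0.81 with quantile normalization. The dim Kdr moved less, from -2.83 to -2.19, and the bright Eno2 differed by 0.10. Whether the Grin1 differences exceed those of probes of like level was not tested. The upstream probe had -3.18, -2.75 and -2.73 in TBI+PMI, -2.61, -2.47 and -2.34 in TBI+JM6, and -2.60 and -2.51 in TBI+E33. Its differences from TBI were 2.72, 3.14 and 3.05, and with quantile normalization 1.56 (adjusted p = 0.0162 by limma), 1.82 (0.00586) and 1.61 (0.0220). With normexp only the upstream probe in TBI+JM6 vs. TBI was still called (1.59, adjusted p = 0.0241 by limma), and the other Grin1 differences were 0.60 to 1.23.

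For Grin2a and Grin2b the calls against TBI changed with the scaling, and no difference between drug groups was called for either gene. Grin2a stood at -2.27, -2.21 and -2.45 in TBI+PMI, -2.21, -3.00 and -2.33 in TBI+JM6, and -2.88 and -2.57 in TBI+E33, all above the 3 TBI values. Its differences from TBI were 2.41, 2.21 and 2.0 for PMI, JM6 and E33, and with quantile normalization 1.41 (adjusted p = 0.0382 by limma), 0.98 (0.108) and 0.62 (0.378). Grin2b stood at -4.74, -5.42 and -4.64 in TBI+PMI, at -3.94, -3.93 and -3.24 in TBI+JM6 and at -4.54 and -4.04 in TBI+E33. The fitted differences from TBI were called for PMI, JM6 and E33 (adjusted p = 0.00034, 6.82e-06 and 6.89e-05 by limma). They were taken against TBI signals that were not above background, so that only bounds can be given for their size. By these bounds, which were not tested themselves, TBI+PMI was at least 2.04-fold, TBI+JM6 at least 4.80-fold and TBI+E33 at least 3.20-fold higher. As log2 these bounds were 1.03, 2.26 and 1.68, beside 0.79, 0.99 and 1.08 for the median of all probes. With quantile normalization the Grin2b differences were 0.12 (adjusted p = 0.859 by limma), 1.33 (0.0267) and 0.29 (0.671).

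**Figure D5:**
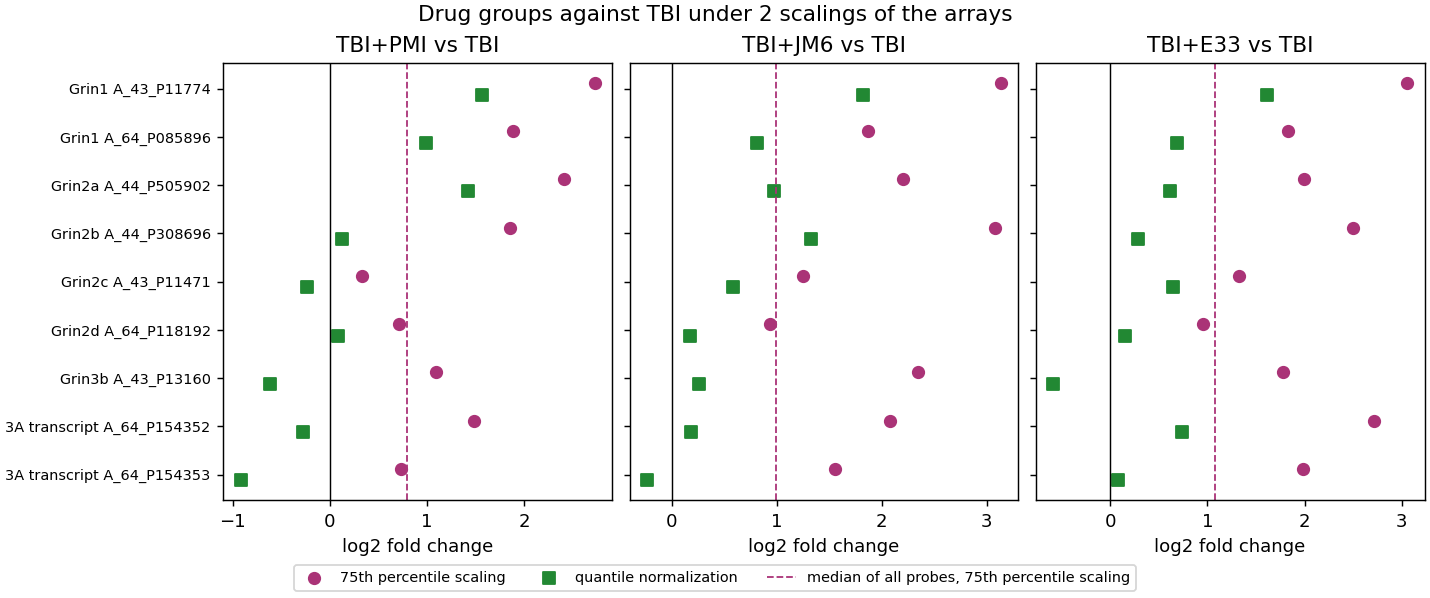
Log2 fold change against TBI (x axis) of each probe (y axis) in TBI+PMI, TBI+JM6 and TBI+E33, with the 75th percentile scaling (circles) and with quantile normalization (squares); the dashed line is the median of all probes under the first scaling. The Grin1 probes stay to the right of 0 under both scalings, while Grin2d lies close to the dashed line and close to 0. In TBI the mean signals of the Grin1 probes were -3.73 and -5.61 and that of Grin2d was -1.28, so subunit and signal level cannot be told apart here.

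Grin2c and Grin2d lay from -0.46 to 0.26 from the all-probe median in the 3 comparisons. Grin2d differed from TBI by 0.71, 0.94 and 0.95 in TBI+PMI, TBI+JM6 and TBI+E33, which lay -0.08, -0.05 and -0.12 from the median of all probes. Grin2c had -0.91, -0.10 and 0.61 in TBI+PMI, which overlapped with TBI, and 0.80, 0.99 and 0.58 in TBI+JM6 and 0.78 and 0.96 in TBI+E33, which did not. Its differences were 0.33 (not called), 1.25 and 1.33, and 0 of these 3 were called with quantile normalization. Grin3b was above background on 3 of 3 TBI+JM6 and 2 of 2 TBI+E33 arrays and on no other, and passed the filter only through those groups. TBI+JM6 was at least 2.23-fold and TBI+E33 at least 1.51-fold higher than the background level of TBI. This is a description, since a probe that passed through these groups had to be higher there. As log2 these bounds were 1.16 and 0.59, beside 0.99 and 1.08 for the median of all probes. With quantile normalization Grin3b differed from TBI by -0.62 in TBI+PMI, 0.26 in TBI+JM6 and -0.58 in TBI+E33, so that its direction turned in TBI+PMI and TBI+E33.

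The 3A probes differed from TBI by 1.48, 2.08 and 2.71 at the first and by 0.73 (not called), 1.56 and 1.98 at the second probe in TBI+PMI, TBI+JM6 and TBI+E33. With quantile normalization the differences were -0.27, 0.18 and 0.74 and -0.91, -0.23 and 0.08, and none was called. Beside these changes, the sum of the excitatory markers was 9.90 to 12.7 in TBI+PMI, 8.53 to 12.7 in TBI+JM6 and 7.56 and 10.5 in TBI+E33 rats, of which only the lower TBI+E33 value and the lowest TBI+JM6 value lay within the TBI range. Its part in the drug results was not tested.

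The drug groups were compared with each other within the second session, and limma called 0 of the 7 probes in each of the 3 comparisons. Of all probes, 0.0131% were called in TBI+JM6 vs. TBI+PMI, 0.0175% in TBI+JM6 vs. TBI+E33 and 0.11% in TBI+PMI vs. TBI+E33. At an unadjusted p under 0.05, limma passed 3, 0 and 2 of the 7, beside 8.84%, 2.81% and 15% of all probes. Grin3b was among the 3 and among the 2. It passed the filter only through TBI+JM6 and TBI+E33, so it was bound to be brighter there and adds no support to either count. The methods' t-test, also unadjusted and with a fold over 1.2, passed 2, 0 and 0, and its share of all probes is not given here. Grin2b was higher in TBI+JM6 than in TBI+PMI by 1.23 with a 95% interval of 0.58 to 1.89, and the values of the groups did not overlap (adjusted p = 0.301 by limma). On the slide that held 3 TBI+PMI rats and 1 TBI+JM6 rat the difference was 0.99. Grin2c was higher by 0.93 (0.18 to 1.68) in the same comparison, with overlapping values. Grin1 at the downstream probe differed by -0.01 (-0.54 to 0.53) in TBI+JM6 vs. TBI+PMI, 0.04 (-0.57 to 0.64) in TBI+JM6 vs. TBI+E33 and 0.04 (-0.56 to 0.65) in TBI+PMI vs. TBI+E33.

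The Grin2a to Grin2b ratio did not overlap between TBI+PMI and TBI+JM6 rats. It was 2.47, 3.21 and 2.19 in TBI+PMI, 1.73, 0.93 and 0.91 in TBI+JM6, and 1.66 and 1.47 in TBI+E33, and the TBI+PMI values lay above those of the other drug groups. The log2 ratio was -1.43 in TBI+JM6 vs. TBI+PMI (exact permutation p = 0.1, the smallest possible with 3 against 3 rats; adjusted over the 6 comparisons, p = 0.3). It was 1.06 in TBI+PMI vs. TBI+E33 (exact permutation p = 0.2, the smallest possible with 3 against 2) and -0.38 in TBI+JM6 vs. TBI+E33 (exact permutation p = 0.6). The design could not reach a p under 0.05 in any of them.

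The genes around the receptor were counted from lists of 86 genes in all. A tested probe was found for 78 of them. In TBI vs. Sham 15 of the 78 were called lower and 2 higher, beside 6.49% and 2.93% of all tested probes, and their median difference was -0.39, beside -0.03 for all probes. Of 23 scaffold and adaptor genes, which tie the receptor to the postsynaptic density, 9 were lower, 0 higher and 14 not called. The largest falls were in Dlg4 (PSD-95), by -2.10 ± 0.40, and in Shank1, by -1.93 ± 0.55 (adjusted p = 0.0115 and 0.0449 by limma). Of 15 calcium signalling genes 2 were lower, Ppp3r1 (the regulatory subunit of calcineurin), by -1.98, and Calm3 (calmodulin), by -0.70. Of 15 kinase and phosphatase genes 2 were lower, Src (-0.84), a kinase that acts on the receptor, and Cdk5 (-0.72).

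Of 11 genes of co-agonist supply, 2 were higher in TBI vs. Sham and 0 lower. They were Slc1a5, a transporter of neutral amino acids, by 1.5, and Shmt1, which interconverts serine and glycine, by 0.84. Of 7 tested kynurenine genes 1 was lower, Ccbl1 (-0.71), a kynurenine aminotransferase, and 0 higher, and of 7 genes of glutamate clearance and loading 1 was lower, Slc17a7 (-1.43). In Sham vs. Naive 9 of the 78 were higher, 5 of them scaffold genes, and 0 lower, beside 6.57% and 1.52% of all probes. In TBI vs. Naive 5 were higher, 3 of them in co-agonist supply (Slc1a5, Shmt1 and Shmt2), and 0 lower, beside 2.98% and 1.73% of all probes. The 17 calls in TBI vs. Sham became 11 with quantile normalization, 0 with normexp or with the compared groups alone, and 1 without Sham 2, 2 without Sham 1 or TBI 3, 4 without TBI 2 and 31 without TBI 1. In the comparisons between drug groups 0 of 78 were called by limma, also with quantile normalization.

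Against TBI, 51 of 78 of these genes were called higher in TBI+JM6, 45 in TBI+PMI and 53 in TBI+E33, and 0 lower, which is near the shares of all probes given above. With quantile normalization 18, 14 and 14 were higher, beside 13.9%, 9.96% and 10.4% of all probes, and 8, 7 and 7 lower. Lower calls were also common over the whole array. Of its 22827 tested probes, 6208, 4377 and 4658 were called in either direction, and 3163, 2274 and 2376 of these were higher. Of the 23 scaffold genes 9, 7 and 8 were then higher and 2, 2 and 4 lower, and of the 7 kynurenine genes 0 were higher and 2, 2 and 1 lower.

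The named genes with a pattern like that of a subunit were ranked by Pearson's r over the 16 arrays after the mean of each session was removed, among 10073 probes of other named genes above background on every array. The closest to the downstream Grin1 probe were Kcnab1 (r = 0.94), a potassium channel subunit, Syn1 (0.94), the synaptic vesicle protein synapsin I, and Gna11 (0.94). The closest to Grin2a were Camk2b (0.92), a subunit of calcium/calmodulin-dependent kinase II, Fam5b (0.91) and Asam (0.91). The closest to Grin2b were Npas1 (0.92), Setd5 (0.92) and Ddit4 (0.90). The Grin2b probe was above background on 12 of the 16 arrays and on 0 of 3 TBI arrays, so its correlations, here and below, rest partly on background-level signals. Among the subunits themselves the Grin1 probes had r = 0.85 with each other, the upstream Grin1 probe 0.75 with Grin2a and 0.69 with Grin2b, and Grin2b 0.75 with Grin2c. Grin2d had at most 0.36 with any other subunit, and the 3A probes had -0.65 and -0.61 with the downstream Grin1 probe and 0.92 with each other. The arrays share the scaling and the group differences, and these values are a description.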

How the data were processed

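Hippocampal RNA of 16 rats was measured on single-colour Agilent arrays. The authors scanned the arrays with Agilent Feature Extraction 9.5.3.1, and the deposited intensity values are its processed signals, already background-subtracted. RNA was amplified with 1 of 2 kits per the labels, and which rat had which was not given in the sources used here. The authors' deposited matrix holds the ratio of each signal to the 75th percentile of its array, from 0.02 to 352.62 with a median of 0.14. Its direction, centring and scale were read from its agreement with the scanner values (r = 0.981 to 0.999 per array).

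The 42877 spots that are not controls, less 341 to 1113 outlier spots per array, were averaged to 30367 probes, divided by the 75th percentile of the probes well above background, and put on a log2 scale. A probe was tested if it was above background in all rats of some group (22827 probes, of which 14295 on every array). Groups were compared in 1 limma 3.58.1 model of the 6 groups with 10 residual degrees of freedom (R 4.3.3), with Benjamini-Hochberg adjustment over all tested probes. The ratio of Grin2a to Grin2b was tested by exact permutation. Bounds for dim probes set the mean of the bright group against, per array, the higher of the dimmest signal well above background and the probe's own signal. The number of arrays limits the precision.

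The methods' t-test, at p under 0.05 and a fold over 1.2, was run as an alternative, beside normexp (offset 50), quantile normalization, other filters, the authors' matrix, slide and replicate number as blocks, and each rat left out. A model of each session with slide as a fixed term was added after seeing the data. Replicate numbers did not pair the rats (3 of 36 same-number pairs correlated above 0.1). Named pathway genes were the 2 with the largest called change in TBI vs. Sham per list, and those of other comparisons were named after their values were seen. The receptor genes, gene lists and markers were chosen with earlier results of these data known. Sequences are printed for 3 probes, and those of the other probes are not reported here.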

Additional observations from a re-analysis of the deposited data

How the results depend on the processing

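The 7 receptor probes gave 4 calls in TBI vs. Sham. There were 0 with normexp, with the compared groups alone and with the slide as a fixed term, 1 with the authors' matrix, and 2 with quantile normalization, with no filter, with probes above background on all 16 arrays (when 4 of the 7 probes drop out), with the methods' t-test and with the replicate block. With 1 rat left out there were 0 to 5. The 1 call in TBI vs. Naive became 0 with normexp, quantile normalization, no filter, the authors' matrix, probes above background on all arrays, the compared groups alone and the slide as a fixed term, and 0 to 2 with 1 rat left out. The 2 calls in Sham vs. Naive became 0 with normexp, quantile normalization and the slide as a fixed term, 1 with probes above background on all arrays and with the compared groups alone, and 0 to 1 with 1 rat left out. The 7 calls in TBI+JM6 vs. TBI became 3 with normexp, quantile normalization, the authors' matrix and probes above background on all arrays, and were 7 with each rat left out. The 6 calls in TBI+PMI vs. TBI became 0 with normexp, 2 with probes above background on all arrays, 3 with quantile normalization and with the authors' matrix, and 5 to 6 with 1 rat left out. The 7 calls in TBI+E33 vs. TBI became 1 with normexp, quantile normalization and the authors' matrix, 3 with probes above background on all arrays, 4 with the 75th percentile over all probes, and 5 to 7 with 1 rat left out. In TBI+JM6 vs. TBI+PMI the methods' t-test gave 2 at unadjusted p-values, where limma gave 0 after adjustment. At an unadjusted p under 0.05 limma gave 3, beside 8.84% of all probes, and Grin3b, which passed the filter only through TBI+JM6 and TBI+E33, was among them.

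The log2 fold changes that turned were Grin2b with normexp, at 0.043 in TBI vs. Sham, 0.30 in TBI vs. Naive and -0.10 in TBI+PMI vs. TBI; Grin3b in TBI+PMI vs. TBI, at -0.27 with normexp, -0.62 with quantile normalization and -0.67 with the authors' matrix, and in TBI+E33 vs. TBI, at -0.58 and -0.71 with the last 2. For the 3A probes these were the first in TBI+PMI vs. TBI, at -0.18 with normexp, -0.27 with quantile normalization and -0.28 with the authors' matrix, and the second in TBI+JM6 vs. TBI, at -0.23 and -0.27 with the last 2. The Grin2a over Grin2b difference in Sham vs. Naive was 0.15 with normexp and -0.42 to 0.26 with 1 rat left out. Averaging all probes of a gene left the ratio as it was, since each of these genes has 1 probe. The causes were not tested. Replicate numbers did not pair the rats, 8 of 16 arrays correlated best with their own number, and and 2 of the 36 called fold changes of single probes lost their call with the replicate block. Where leaving out a rat left 1 in its group, that rat was taken to vary like the other groups. Signals near background limit Grin2b and Grin3b most, since their levels in TBI are bounds.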
